A study of Mus musculus with 29 samples.

Results

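The genes described here are 34 components of the lysosome, the acidic organelle in which cells break down proteins, lipids and glycans. They were chosen by symbol under a rule that uses no measured value, though with earlier results of these data known, and comprise 12 proteases, 4 membrane proteins, 8 hydrolases and other soluble proteins, and 10 subunits of the vacuolar proton pump (V-ATPase), 5 from its membrane sector V0 and 5 from its cytosolic sector V1. All 34 were found among the 48709 gene identifiers of the deposited count tables.

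The study inhibited the microRNA miR-99b-5p with a locked nucleic acid oligonucleotide (anti-miR-99b) and used a scrambled oligonucleotide (sc-control) as the control in all 3 of its mouse RNA-seq experiments. The prefrontal cortex (PFC) experiment compared C57BL/6J mice at 3 months of age that had received either oligonucleotide in lipid nanoparticles in the PFC, with 3 libraries per group. In the second experiment, microglia from CD1 pups at postnatal day 1, shaken off mixed glia and grown with L929 conditioned medium, carried either oligonucleotide, with 4 libraries per group. In the third, such treated microglia were co-cultured with untreated CD1 cortical neurons from embryonic day 17.5, and RNA of both cell types was sequenced together in 7 anti-miR-99b and 8 sc-control libraries. Strain, age, culture and experiment changed together between the sample types and cannot be told apart. PFC tissue and co-cultures hold several cell types, so that a lower number of cells of a type and less RNA per cell cannot be told apart either. The libraries were made from polyadenylated RNA, which does not hold the mature microRNA, so its loss could not be checked in them.

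Lysosomal proteases are made as inactive precursors and need a low pH to work. That pH is set by the V-ATPase, in which ATP hydrolysis in the V1 sector turns a ring in the V0 sector and so moves protons across the membrane. Microglia, the resident phagocytes of the brain, are rich in lysosomal enzymes, with which they digest debris, synapses and dying cells, whereas neurons also use the V-ATPase to load synaptic vesicles with transmitter. Many lysosomal genes are controlled together by the transcription factors TFEB, TFE3 and MITF, which bind the palindrome CACGTG, in particular in the longer form TCACGTGA known as the core of the CLEAR element.

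The inhibited microRNA and the promoters that hold such palindromes are shown first: the first is the molecule the study blocked, and the others carry the motif by which lysosomal genes are known to be controlled together. The mature mmu-miR-99b-5p (RefSeq, GRCm38.p6, chr17:17830194-17830215, + strand) has 22 bases, and capitals mark its seed, bases 2 to 8.
mmu-miR-99b-5p: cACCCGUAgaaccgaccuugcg
RefSeq promoter windows of 300 bases, 250 before and 50 after a transcript start, were at hand for 27 of the 34 genes (32 windows). CACGTG occurred in a window of 11 of these 27 genes (40.7%), against 8.1% of all 27025 genes with a window. TCACGTGA, which contains CACGTG, occurred in 4 of them (14.81%) against 1.12% of all genes, and the 4 were Ctsa, Ctsd, Atp6v0d1 and Atp6v1a. CACGTG was also held by 8 of 32 other lysosomal genes with a window and by 1 of 14 microglia marker genes. Both motifs read the same on either strand, and a match describes the letters of the window and not a bound site. The windows of these 4 genes and of Lamp1, which held the most copies of CACGTG among the 34 genes, are given 5′ to 3′ (GRCm38.p6) with each CACGTG in capitals.
Ctsa, chr2:164833523-164833822, + strand: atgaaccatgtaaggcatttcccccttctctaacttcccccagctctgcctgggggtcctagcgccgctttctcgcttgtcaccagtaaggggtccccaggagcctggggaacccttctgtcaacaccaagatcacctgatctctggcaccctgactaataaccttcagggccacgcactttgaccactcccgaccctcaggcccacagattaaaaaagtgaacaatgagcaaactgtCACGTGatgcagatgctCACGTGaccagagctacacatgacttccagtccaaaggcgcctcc
Ctsd, chr7:142387778-142388077, - strand: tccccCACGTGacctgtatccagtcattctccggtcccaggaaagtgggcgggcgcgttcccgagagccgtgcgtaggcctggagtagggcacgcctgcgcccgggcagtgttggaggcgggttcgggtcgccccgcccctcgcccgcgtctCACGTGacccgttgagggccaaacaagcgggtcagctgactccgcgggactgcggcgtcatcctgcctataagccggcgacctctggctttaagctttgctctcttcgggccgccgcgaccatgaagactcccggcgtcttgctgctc
Lamp1, chr8:13158911-13159210, + strand: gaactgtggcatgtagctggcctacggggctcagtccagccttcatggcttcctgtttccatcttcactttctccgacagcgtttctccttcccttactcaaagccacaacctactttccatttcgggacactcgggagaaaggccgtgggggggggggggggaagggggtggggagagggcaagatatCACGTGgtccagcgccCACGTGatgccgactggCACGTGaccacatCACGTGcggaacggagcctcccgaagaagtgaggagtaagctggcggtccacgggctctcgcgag
Atp6v0d1, chr8:105566015-105566314, - strand: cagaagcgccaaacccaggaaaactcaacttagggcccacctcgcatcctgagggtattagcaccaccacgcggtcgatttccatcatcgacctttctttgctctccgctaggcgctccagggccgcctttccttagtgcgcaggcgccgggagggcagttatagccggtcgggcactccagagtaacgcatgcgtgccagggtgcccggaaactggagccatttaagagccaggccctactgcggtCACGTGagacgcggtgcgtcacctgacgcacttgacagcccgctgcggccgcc
Atp6v1a, chr16:44139210-44139509, - strand: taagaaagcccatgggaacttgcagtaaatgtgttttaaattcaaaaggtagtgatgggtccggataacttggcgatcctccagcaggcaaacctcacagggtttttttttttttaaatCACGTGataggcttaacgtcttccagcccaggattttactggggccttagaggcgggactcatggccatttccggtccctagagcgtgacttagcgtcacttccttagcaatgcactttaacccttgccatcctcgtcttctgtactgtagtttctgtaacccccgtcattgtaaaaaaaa
In the Lamp1 window the 4 copies began 61, 45, 28 and 15 bases before the transcript start, whereas Atp6v0d1 had 1 copy that began 3 bases before it. Windows of Atp6v0b (2 copies), Glb1, Gaa, Lgmn, Ctsl and Ctsf (1 copy each) held CACGTG as well.

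Sequencing depth was similar throughout, with 21324156 to 37901110 counted reads per library. The labelled sample types were checked with marker genes fixed as lists. Levels within an experiment are given as CPM, a gene's reads scaled to a library of 1000000 reads. Summed over 20 microglia markers they were 15386 to 16231 in the sc-control microglia, 597 to 808 in the sc-control PFC and 169 to 215 in the sc-control co-cultures, whereas 12 neuron markers summed to 142 to 152, 10634 to 11258 and 8480 to 8809. The 8 astrocyte markers summed to 2526 to 2728 CPM in the sc-control co-cultures, so that these held astrocyte transcripts as well as those of the 2 labelled cell types.

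Across the sc-control libraries, 10 of the 12 proteases, all but Ctsk and Ctsf, and 7 of the 8 hydrolases and soluble proteins, all but Gaa, were called higher in primary microglia than in PFC, while 8 of the 10 V-ATPase subunits differed by less than 2-fold between microglia and PFC. The 34 genes together took 5.46% to 5.55% of all counted reads in microglia, 0.829% to 0.872% in the PFC and 0.595% to 0.620% in the co-cultures. The 12 proteases took 3.59% to 3.66% of the reads in microglia, 0.168% to 0.209% in the PFC and 0.105% to 0.117% in the co-cultures. The 10 V-ATPase genes took 0.320% to 0.321%, 0.324% to 0.352% and 0.250% to 0.255% of the reads, less than the proteases in microglia and more than them in the PFC and the co-cultures.

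With an adjusted p below 0.05 and an absolute log2 fold change above 1 (edgeR's quasi-likelihood test, Benjamini-Hochberg adjustment over all genes), 22 of the 34 genes were higher and 2 lower in sc-control microglia than in sc-control PFC, where 26.4% of all 18274 tested genes were higher and 37% were lower. Their median log2 difference was 2.95, against -0.15 over all genes. Between microglia and co-culture, 25 of the 34 were higher and 0 lower in microglia, against 24.3% and 35.2% of all genes, with a median of 2.86 against -0.17. Between co-culture and PFC, 2 were higher and 7 lower in the co-culture, against 14.9% and 20.5%, with a median of -0.53 against 0.00. By DESeq2 the counts were also 25 and 0 for microglia against co-culture. In edgeR's fit of that comparison, 2 V1 subunits, Atp6v1d and Atp6v1h, were lower in microglia at an adjusted p below 0.05 but missed the fold threshold.

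**Figure D1:**
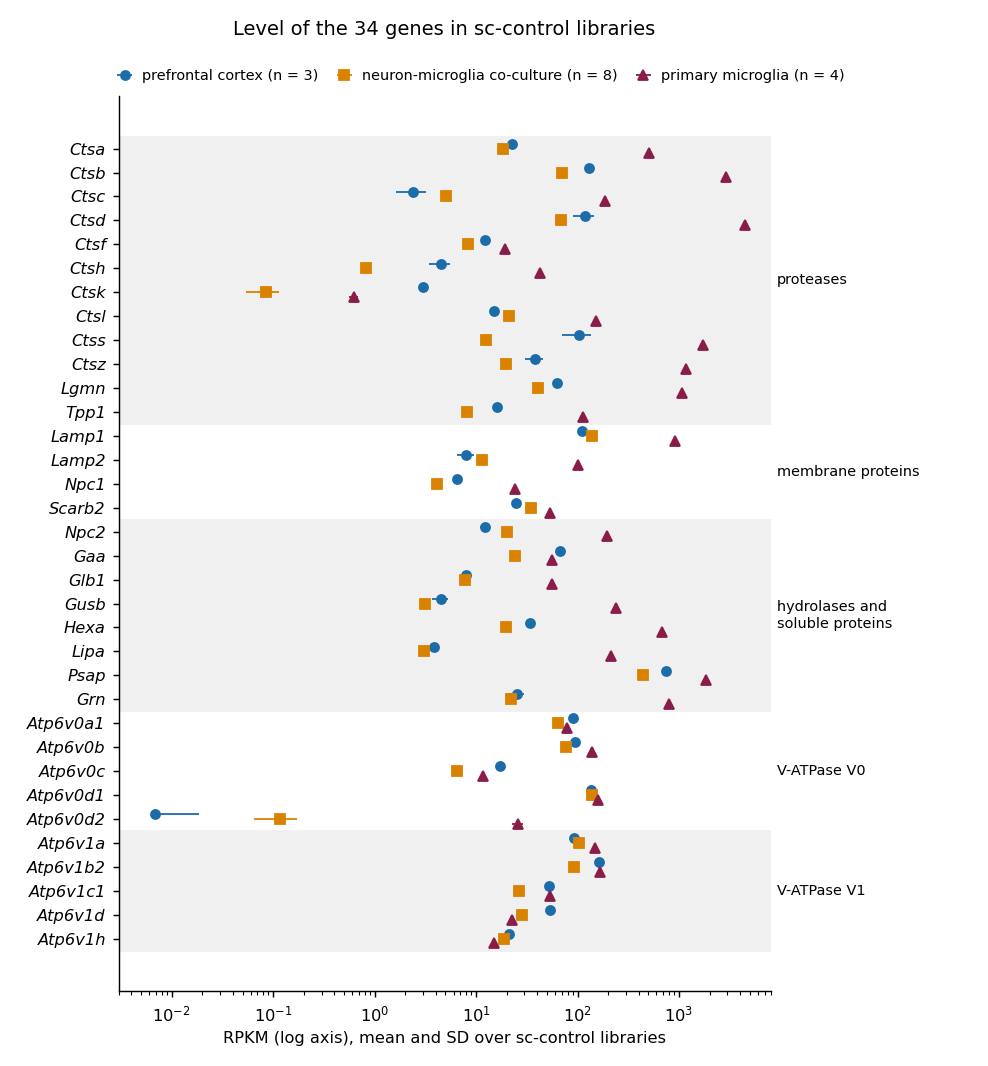
Level of each gene in the sc-control libraries in RPKM on a log axis (points are means over 3 PFC, 8 co-culture and 4 microglia libraries, bars are SDs, and a lower bar is left out where the SD exceeds the mean). Membrane proteins, hydrolases and soluble proteins other than Gaa and proteases other than Ctsk lie furthest to the right in microglia, whereas the 3 symbols lie closer together for the V-ATPase subunits other than Atp6v0d2.

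Among the proteases, 10 of 12 were higher in microglia than in PFC and the list median was 4.07. Levels per length are given as RPKM, CPM per kilobase of exon, as mean ± SD. Ctsd, the main aspartic protease of the lysosome, was the highest of all 34 genes in microglia at 4446 ± 166 RPKM (n = 4) and stood at 117 ± 26.99 RPKM in PFC (n = 3) and 69.3 ± 4.23 RPKM in co-culture (n = 8). This was a log2 difference of 5.24 ± 0.11 (SE) between microglia and PFC, or 37.9-fold. Ctsb, a cysteine protease, was next at 2933 ± 54.2 RPKM in microglia, against 128 ± 8.13 in PFC and 69.9 ± 2.23 in co-culture. Ctsb and Ctsd alone took 1.59% to 1.62% and 0.922% to 0.967% of all counted reads in the microglia. In the annotation used here (GENCODE M21), 34.4% of the exonic bases of Ctsd are shared with Gm49369 on the same strand, and 12.8% of those of Ctsb with Fdft1 on the opposite strand, so that the level of either gene is uncertain to the extent that reads fell there.

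Ctsc, which activates serine proteases of immune cells, showed the largest difference among the proteases, with 189 ± 5.25 RPKM in microglia against 2.41 ± 0.786 in PFC, a log2 difference of 6.28 ± 0.12. Ctss, a cysteine protease of antigen-presenting cells, was the gene that best separated PFC from co-culture among the abundant proteases. Its RPKM was 1725 ± 52.0 in microglia, 103 ± 32.4 in PFC and 12.5 ± 0.856 in co-culture, so that the co-culture lay below the PFC by a log2 difference of -3.03 ± 0.10. Ctsh, an aminopeptidase of the same family, followed this order with 43.1 ± 1.36, 4.50 ± 1.08 and 0.818 ± 0.080 RPKM.

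Ctsk, best known as the collagen-degrading protease of osteoclasts, ran the other way. Its RPKM was 3.01 ± 0.006 in PFC, 0.622 ± 0.061 in microglia and 0.085 ± 0.031 in co-culture, a log2 difference of -2.26 ± 0.14 for microglia against PFC and of -5.12 ± 0.16 for co-culture against PFC. The co-culture level rested on 1 to 5 reads per library. Ctsf, the protease whose level varied least between the sample types, stood at 19.1 ± 0.483, 12.2 ± 0.211 and 8.24 ± 0.239 RPKM in microglia, PFC and co-culture and was not called between microglia and PFC. Tpp1, a tripeptidyl peptidase, was 113 ± 1.96 RPKM in microglia and was lower in co-culture (8.06 ± 0.365) than in PFC (16.2 ± 0.321), a log2 difference of -1.01 ± 0.04.

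The 4 membrane proteins were all higher in microglia than in PFC. Lamp1 and Lamp2 form most of the protein coat on the inner side of the lysosomal membrane. Lamp1 stood at 919 ± 11.9 RPKM in microglia, 111 ± 7.75 in PFC and 138 ± 2.51 in co-culture, and Lamp2 at 102 ± 1.79, 7.93 ± 1.51 and 11.4 ± 0.424. Scarb2, the receptor that carries glucocerebrosidase to the lysosome, differed least, with 54.1 ± 1.44, 24.7 ± 1.24 and 34.9 ± 0.705 RPKM. Npc1, which exports cholesterol from the lysosome, stood at 24.1 ± 0.529, 6.43 ± 0.195 and 4.17 ± 0.152 RPKM.

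Of the 8 hydrolases and soluble proteins, 7 were higher in microglia than in PFC. Lipa, the acid lipase, and Gusb, beta-glucuronidase, showed the largest log2 differences, 5.81 ± 0.07 and 5.75 ± 0.09. Lipa stood at 3.84 ± 0.428 RPKM in PFC and 215 ± 3.09 in microglia, and Gusb at 4.49 ± 0.834 and 241 ± 3.55. Psap, the precursor of the saposins that help enzymes reach lipids, was the most abundant of the 34 genes in PFC (737 ± 19.1 RPKM) and in co-culture (438 ± 9.22), and at 1835 ± 78.6 RPKM in microglia it was 2.49-fold higher there than in PFC. Gaa, the acid alpha-glucosidase, was the exception, with 55.8 ± 2.73 RPKM in microglia, 67.9 ± 5.74 in PFC and 24.3 ± 0.899 in co-culture.

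The proton pump behaved otherwise. Of its 10 genes, 1 was higher and 1 lower in microglia than in PFC, and the median log2 difference was 0.03. Atp6v1b2, a subunit of the ATP-hydrolysing head, stood at 168 ± 3.51 RPKM in microglia and 163 ± 7.66 in PFC, and Atp6v0d1, the ubiquitous d subunit of V0, at 161 ± 3.67 and 135 ± 9.18. Atp6v1d, part of the central rotor, was lower in microglia (22.6 ± 0.295 RPKM) than in PFC (54.1 ± 1.80), a log2 difference of -1.26 ± 0.04. Atp6v0c, which encodes the proton-carrying ring subunit, was highest in PFC at 17.1 ± 0.969 RPKM, against 11.8 ± 0.487 in microglia and 6.43 ± 0.300 in co-culture, a log2 difference of -1.41 ± 0.04 between co-culture and PFC.

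Atp6v0d2, the second d subunit, known from osteoclasts and macrophages, was far higher in microglia than elsewhere. Its level was 25.9 ± 3.08 RPKM in microglia, from 1168 to 2430 reads per library, and 0.118 ± 0.053 RPKM in co-culture, from 3 to 15 reads per library. In PFC it had 2 reads in the 3 sc-control libraries together. The ratio of microglia to PFC was 3686 (95% exact interval 1020 to 30446) and that of microglia to co-culture 229 (182 to 292), and these intervals cover counting error only.

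Lists of related genes were counted in the same comparison. Of 42 other lysosomal genes tested, 30 were higher and 3 lower in microglia than in PFC, including Galns (log2 difference 4.45) and Man2b1 (4.21), which degrade keratan sulfate and mannose-rich glycans. Of 12 other V-ATPase genes tested, 4 were higher and 4 lower. Among them, Tcirg1, the a subunit of osteoclasts and immune cells, was higher in microglia (4.13), as was Atp6v0e (2.91), while the neuronal isoform Atp6v1g2 (-7.04) and Atp6v0e2 (-2.50) were lower. Of 6 regulators and inhibitors, 5 were higher in microglia, among them Mitf (3.77), Tfe3 (2.11) and Tfeb (2.11), which encode the CLEAR-binding factors, and Cstb (4.22), a cysteine protease inhibitor.

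In the co-cultures, anti-miR-99b treatment of the microglia went along with higher levels of 5 proteases and of Atp6v0d2. With an adjusted p below 0.05 and an absolute log2 fold change above 0.1, 6 of the 33 members tested were higher and 0 lower, where 0.846% of all 16193 genes tested were higher and 0.556% were lower. Ctsk had too few reads to be tested. The members' median log2 fold change was 0.05, against 0.00 over all genes, and 26 of 33 values were positive. At an unadjusted p below 0.05, 12 members were higher and 2 lower, against 6.4% and 6.81% of all genes. DESeq2 called 5 higher and 0 lower, and gave no adjusted p for Atp6v0d2.

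Ctsz (chr2:174427493-174439039, GRCm38), a carboxypeptidase, had the smallest p of the 34 genes. The lowest, median and highest CPM were 26.5, 29.6 and 33.2 in the 8 sc-control libraries and 32.9, 35.8 and 38.6 in the 7 anti-miR-99b libraries. The groups met only where the highest control passed the lowest treated library. The log2 fold change was 0.27 ± 0.05 (adjusted p = 0.0013 by edgeR's quasi-likelihood test), a 20.9% difference, and the two-sided exact permutation test gave p = 0.00062, where the smallest possible value is 0.00031.

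Ctss (chr3:95526786-95556403) had the lowest, median and highest CPM of 16.4, 17.3 and 19.7 in sc-control and 18.7, 22.2 and 24.9 in anti-miR-99b libraries. Its groups overlapped, with 2 treated libraries below the highest control. The log2 fold change was 0.31 ± 0.06 (adjusted p = 0.0037).

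The 2 most abundant proteases moved by smaller amounts. Ctsb (chr14:63122462-63145923) measured 428, 434 and 469 CPM at the lowest, median and highest of the controls and 465, 471 and 488 CPM in the treated co-cultures, a log2 fold change of 0.11 ± 0.02 (adjusted p = 0.006). Ctsd (chr7:142375911-142388038) measured 151, 167 and 181 CPM against 176, 192 and 200 CPM, a log2 fold change of 0.17 ± 0.03 (adjusted p = 0.010). In both genes the treated and control ranges overlapped. Ctsl (chr13:64359337-64370890), a broadly expressed cysteine endopeptidase, measured 137, 143 and 149 CPM against 147, 158 and 160 CPM, with a log2 fold change of 0.12 ± 0.03 (adjusted p = 0.014). Gm47123, on the opposite strand, shares 26.8% of the exonic bases of Ctsl, and the library kit does not mark strand.

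Atp6v0d2 (chr4:19876841-19922605) showed the largest change at the lowest level. It measured 0.118, 0.343 and 0.619 CPM at the lowest, median and highest of the controls and 0.465, 0.795 and 1.03 CPM in the treated co-cultures, from 3 to 28 reads per library. The log2 fold change was 1.18 ± 0.24 (adjusted p = 0.0094). The ubiquitous isoform Atp6v0d1 had a median of 261 CPM in the controls and 263 CPM in the treated libraries, with a log2 fold change of 0.01 ± 0.02.

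**Figure D2:**
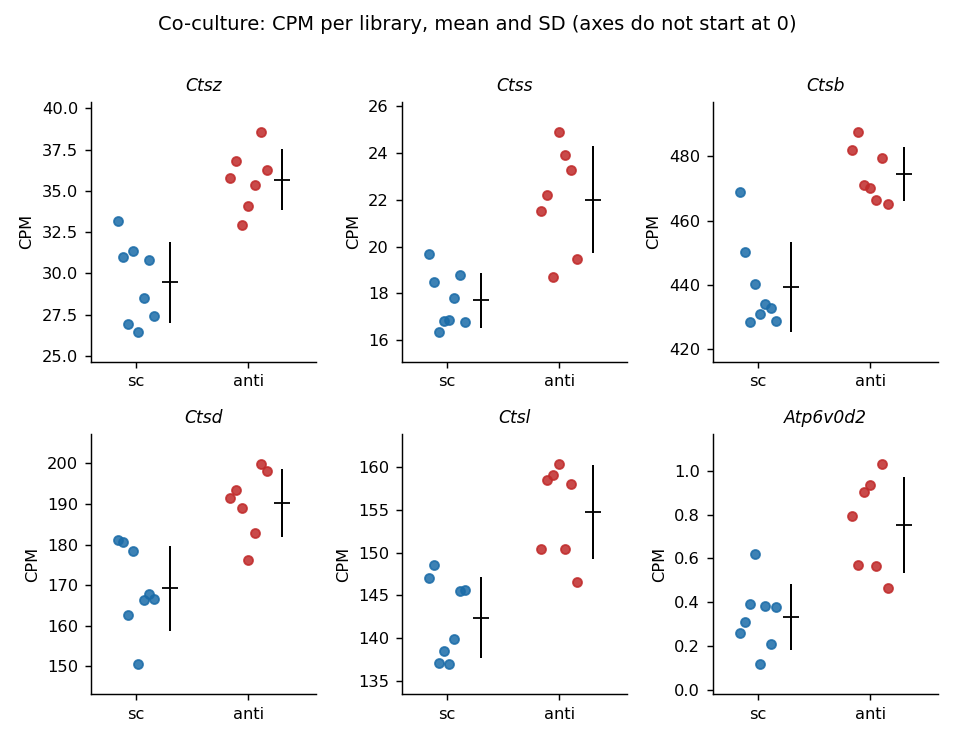
CPM of the 6 genes called in the co-cultures, 1 point per library (8 sc-control in blue, 7 anti-miR-99b in red), with the mean and SD as black bars. The axes do not start at 0. In each gene the treated mean lies above the control mean, and the 2 groups of points touch or overlap.

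The members with the next smallest p-values were not called. Lgmn, an asparaginyl protease, had a log2 fold change of 0.08 ± 0.03 (adjusted p = 0.12 by edgeR), and Atp6v0a1, a V0 subunit abundant in neurons, one of -0.06 ± 0.02 (adjusted p = 0.17). Npc2, which carries cholesterol inside the lysosome, had one of 0.06 ± 0.02 (adjusted p = 0.24), and Lipa one of 0.11 ± 0.04 (adjusted p = 0.25). By role, all 11 proteases tested had positive values (median 0.09), while the 4 membrane proteins had a median of -0.01, the 8 hydrolases 0.04 and the 5 V1 subunits 0.03, with values of -0.003 to 0.049.

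Microglia markers moved with these genes. Of 20 markers, 19 had positive values, 10 were called higher and 0 lower, and their median log2 fold change was 0.29. Their summed level was 169 to 215 CPM in sc-control and 210 to 247 CPM in anti-miR-99b co-cultures, and none of the 20 was at 0. Called markers included Trem2 (0.70 ± 0.11), C1qc (0.33 ± 0.05) and Csf1r (0.34 ± 0.05). Neuron markers had a median of 0.00 with none called, and astrocyte markers one of 0.01. The part of the microglia markers in the protease result was not tested.

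Set beside the microglia-to-PFC difference, the members with larger co-culture values were those enriched in microglia. The 2 groups of that difference are not in the co-culture comparison, but its fit also held the 8 sc-control co-cultures. All 6 called genes had a microglia-to-PFC log2 difference of at least 3.36, the value of Ctsl. Across 33 genes, which are not independent replicates and which share libraries and reads, Spearman's rho was 0.65 and Pearson's r 0.70, or 0.61 and 0.52 without Atp6v0d2. Not every microglia-enriched member moved. Gusb and Glb1, with microglia-to-PFC differences of 5.75 and 2.84, had co-culture values of 0.03 ± 0.05 and -0.03 ± 0.04.

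**Figure D3:**
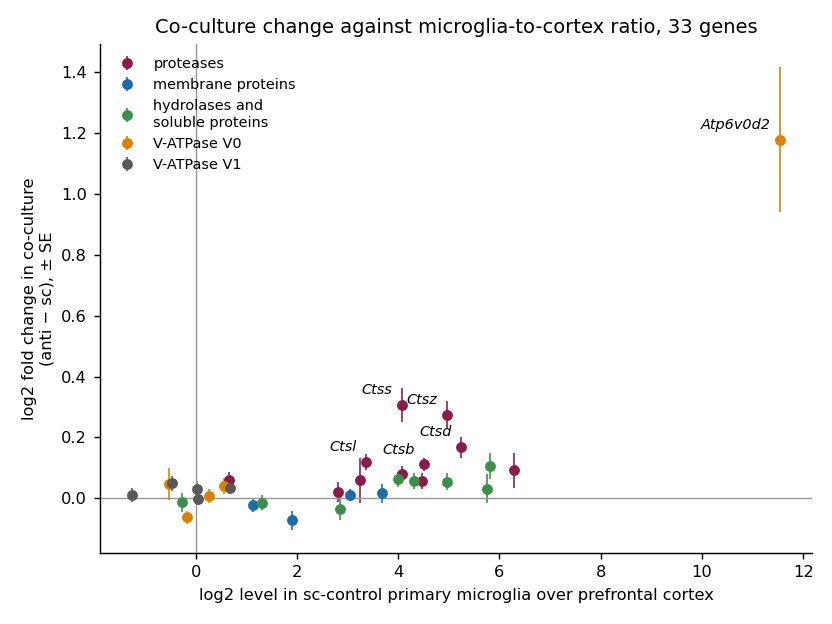
Log2 fold change in co-culture (anti-miR-99b minus sc-control, bars are SE) against the log2 ratio of sc-control primary microglia to sc-control PFC for 33 genes, coloured by role. Atp6v0d2 (11.54 and 1.18) lies apart from the other V-ATPase subunits, which range from -1.26 (Atp6v1d) to 0.68 (Atp6v1a) on the horizontal axis, and the 5 called proteases are named.

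Among the other lists, 1 of 42 other lysosomal genes tested was called higher and 0 lower. It was Cd68, a membrane glycoprotein of phagocyte lysosomes, at 11.5, 13.0 and 15.6 CPM (lowest, median and highest) in the controls and 16.9, 17.9 and 18.8 CPM in the treated libraries, which did not overlap, with a log2 fold change of 0.43 ± 0.05 (adjusted p = 3.01e-05 by edgeR). None of 12 other V-ATPase genes was called. Cstb was the 1 of 6 regulators and inhibitors called, with 21.9 to 24.2 CPM in the controls and 25.5 to 27.4 CPM in the treated libraries and a log2 fold change of 0.19 ± 0.03 (adjusted p = 0.0029).

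In the PFC, no member was called. With an adjusted p below 0.1 and an absolute log2 fold change above 0.2, 0 of 33 members tested were higher and 0 lower, where 0.0864% of all 17364 genes tested were higher and 0% were lower. Atp6v0d2 had too few reads to be tested. The median log2 fold change of the members was 0.05, against 0.00 over all genes. At an unadjusted p below 0.05, 5 members were higher and 1 lower, against 5.17% and 2.47% of all genes, with adjusted p values of 0.64 to 0.65 by edgeR. DESeq2 called 0 as well.

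The 5 genes with the smallest p-values held 4 with higher means in treated mice. Ctss measured 202, 211 and 195 CPM in anti-miR-99b mice 1, 2 and 3 and 124, 116 and 199.6 CPM in sc-control mice 2, 3 and 4, where the numbers are those of the libraries. Control mouse 4 lay within the treated range, and the other 2 controls far below it. The log2 fold change was 0.47 ± 0.17 (adjusted p = 0.64, edgeR). Ctsh measured 31.6, 30.9 and 24.1 CPM against 18.3, 18.2 and 27.1 CPM, a log2 fold change of 0.44 ± 0.16. Grn, the precursor of the granulins of the lysosome, measured 127, 122 and 100.2 CPM against 81.2, 86.7 and 110.0 CPM, a log2 fold change of 0.33 ± 0.12. Lgmn measured 198, 187 and 160.0 CPM against 143, 148 and 168 CPM, a log2 fold change of 0.25 ± 0.09. In all 4 genes the groups overlapped through control mouse 4, which was the highest control in each.

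Of the 9 V-ATPase genes tested, 7 had negative values, and 1 reached an unadjusted p below 0.05. This was Atp6v1a, the catalytic subunit that hydrolyses ATP. It measured 484, 509 and 548 CPM in anti-miR-99b mice 1, 2 and 3 and 576, 595 and 587 CPM in sc-control mice 2, 3 and 4. Every treated mouse lay below every control. The log2 fold change was -0.19 ± 0.07 (adjusted p = 0.64, edgeR), and the two-sided exact permutation p was 0.1, the smallest that 3 against 3 libraries allow. All 5 V1 subunits had negative values, from -0.19 to -0.03, with a median of -0.11, and 2 of the 4 V0 subunits tested were negative.

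**Figure D4:**
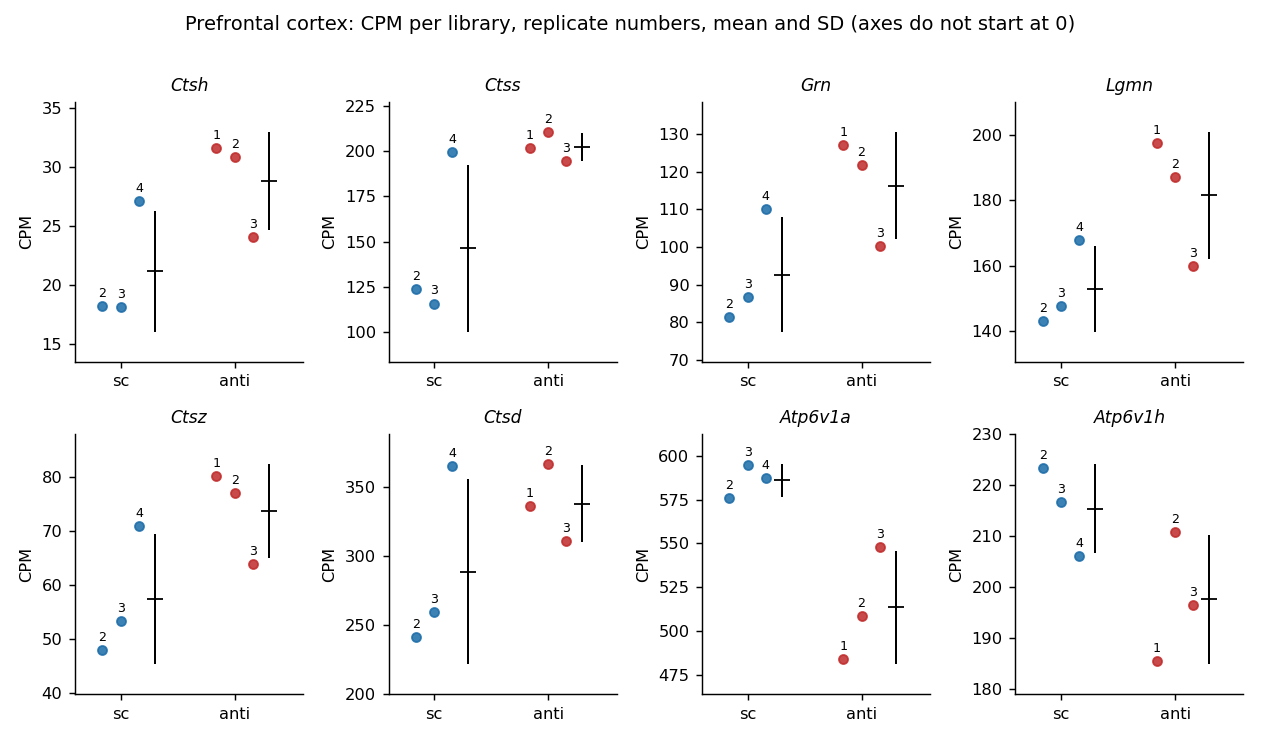
CPM of 8 members in the PFC, 1 point per mouse with the library's number (3 sc-control in blue, 3 anti-miR-99b in red) and the mean and SD as black bars. The axes do not start at 0. Control mouse 4 sits beside the treated mice for the cathepsins and Grn, but among the controls for Atp6v1a.

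The absence of calls in the PFC depended on that control mouse and on the filter on low counts. Without that mouse, 5 proteases were called higher, Ctss (0.76 ± 0.08), Ctsh (0.66 ± 0.13), Ctsc (0.56 ± 0.10), Ctsz (0.54 ± 0.11) and Ctsd (0.43 ± 0.09). Their adjusted p values were 0.008 to 0.090 by edgeR, against 0.64 to 0.73 with that mouse. The calls over all genes in that fit are not given here, so whether these calls are particular to the members cannot be told. Ctsc, Ctsz and Ctsd were named after their values were seen. Leaving out any other library called 0, whereas a fit with no filter on low counts called Ctss, Ctsh, Ctsz and Grn. Ctss, for example, had adjusted p values between 5.4e-12 and 0.97 over the alternatives that were run. Control mouse 4 was sequenced in lane 7, as was treated mouse 3, and the other 4 libraries in lane 6. With the lane in the model, 0 members were called.

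The summed level of the microglia markers ranked the 6 mice in the same order as Ctss. It was 839, 872 and 790 CPM in treated mice 1, 2 and 3, and 615, 597 and 808 CPM in control mice 2, 3 and 4. Of the 20 markers 18 had positive values, with a median log2 fold change of 0.32, 10 reached an unadjusted p below 0.05, and 0 were called. Their part in the protease values was not tested. None of the other lysosomal, V-ATPase or regulator genes was called, with medians of 0.03, -0.04 and 0.07, while 3, in all, reached an unadjusted p below 0.05.

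In primary microglia, in which the members are most abundant, anti-miR-99b was accompanied by no called change. With an adjusted p below 0.1 and an absolute log2 fold change above 0.1, 0 of 34 members were higher and 0 lower, where 0.435% of all 14953 genes tested were higher and 0.0535% were lower. DESeq2 called 0 too, and 1 member reached an unadjusted p below 0.05, as did 6.45% of all genes. The median was 0.02, against 0.00 over all genes, and 27 of the 34 values were positive. Replicates lay close together. The values other than those of Ctsk, at -0.26 ± 0.22 with 15 to 29 reads per library, lay between -0.08 and 0.07.

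Grn had the smallest p, with 2572, 2601, 2626 and 2607 CPM in anti-miR-99b replicates 1, 3, 4 and 5 and 2551, 2404, 2555 and 2403 CPM in sc-control replicates 2, 3, 4 and 6. The treated libraries all lay above the controls, by a log2 fold change of 0.07 ± 0.03 (adjusted p = 0.65, edgeR). Ctsb measured 16272, 16604, 17069 and 16240 CPM against 16022, 15976, 15846 and 16079 CPM, with no overlap and a log2 fold change of 0.05 ± 0.03 (adjusted p = 0.81). Lgmn (0.05 ± 0.02) and Ctsl (0.05 ± 0.03) had treated values above every control as well. With 4 against 4 libraries, such separation has an unadjusted two-sided exact permutation p of 0.029. The share of all genes that separated in this way was not computed. Atp6v0c measured 33.54, 34.13, 33.02 and 35.18 CPM against 34.95, 35.97, 35.43 and 37.12 CPM, with 1 treated library inside the control range and a log2 fold change of -0.08 ± 0.04 (adjusted p = 0.77). These 5 genes had the smallest p-values, and none changed by as much as 6%.

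Genes called in co-culture were measured far more deeply here. Ctss had 2099, 2217, 2223 and 2194 CPM in treated and 2099, 2136, 2055 and 2149 CPM in control microglia, and its log2 fold change was 0.05 ± 0.03. Ctsz had a log2 fold change of 0.05 ± 0.03 and Atp6v0d2 of 0.00 ± 0.07. Microglia markers had a median of 0.02 with 0 of 20 called. Their summed level was 15386 to 16231 CPM in sc-control and 15611 to 16325 CPM in anti-miR-99b microglia. None of the other lysosomal, V-ATPase or regulator genes was called.

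**Figure D5:**
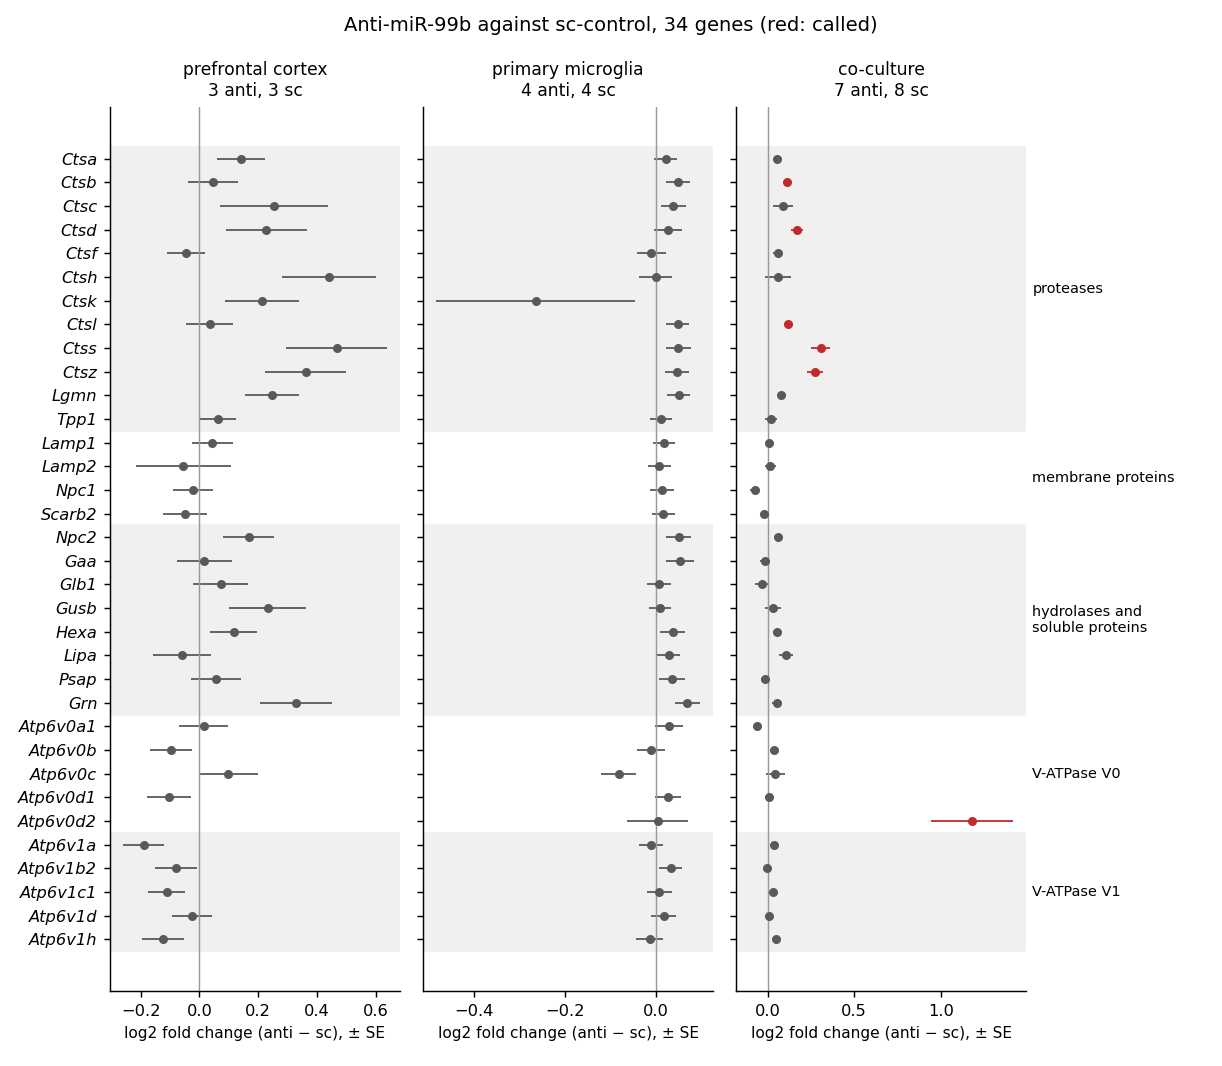
Log2 fold change of anti-miR-99b against sc-control (bars are SE) for each gene in the 3 experiments, with called genes in red and a separate scale per panel. In PFC 11 of 12 proteases have values above 0 and all 5 V1 subunits values below 0, none of them called, and microglia values cluster at 0 apart from Ctsk.

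The difference in the treatment effect between experiments was tested in 1 model of all 29 libraries, at an adjusted p below 0.05. Between PFC and co-culture, 1 of the 34 members differed, where 0.791% of all 18963 genes did. It was Atp6v1a, whose effect was -0.19 ± 0.07 in PFC and 0.04 ± 0.02 in co-culture, a difference of -0.22 ± 0.05 (adjusted p = 0.019, edgeR). The SE of this difference is below that of the PFC effect alone. The model fits 1 spread per gene to all libraries and so may understate the spread in PFC. In microglia the effect on Atp6v1a was -0.01 ± 0.03, and the PFC-to-microglia difference of -0.20 ± 0.05 had an adjusted p = 0.096 in edgeR's test. Between PFC and microglia 0 members differed, where 0.469% of all genes did, and between co-culture and microglia 0, where 0.0844% did. At an unadjusted p below 0.05 these 2 differences counted 10 and 4 members, against 11.9% and 5.49% of all genes, and no other tool was run on them. Atp6v0d2 rose in co-culture and had a value of 0.00 in microglia, yet the difference of 1.15 had an adjusted p = 0.24 by edgeR. The protease effects of co-culture and of PFC were thus not shown to differ from those in microglia.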

How the data were processed

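Poly(A) RNA libraries (Illumina TruSeq RNA v2, a kit that does not mark strand, 50 bp single reads on a HiSeq2000) were analysed from 3 deposited tables of raw counts per gene, 29 libraries in all. The authors made these counts with STAR 2.5.2b and featureCounts 1.5.1 on mm10 after bcl2fastq 2.20.2 and FastQC 0.11.5, per the submitters' processing notes. The strand and multi-mapping settings are not given in the sources used here, so overlapping genes and close copies are uncertain. Identifiers were matched to GENCODE M21 (48349 of 48709 had a symbol) and promoters and the microRNA to RefSeq (GRCm38.p6). Exons of 12 members overlap another gene.

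Each experiment was fitted alone in edgeR 4.0.16 (R 4.3.3) with filterByExpr, TMM scaling and the quasi-likelihood test, Benjamini-Hochberg adjusted over all genes tested, without covariates. The thresholds in PFC and co-culture are those of the study's text, and that in microglia was set here. For PFC the study's figure legend gives stricter ones. It names DESeq2 as the test, so the study's counts of called genes are not those given here. The 15 sc-control libraries were fitted together for the sample types, and all 29 for differences between experiments. SEs are the fold change divided by the root of the F statistic. CPM values use TMM library sizes, and RPKM divides CPM of the sample type fit by the summed length of all annotated exons in kilobases. Permutation tests were exact and two-sided. Alternatives were DESeq2 1.42.0, RLE and upper-quartile scaling, no filter, at least 10 counts in every library, 1 RUVs factor, sequencing lane, replicate number, other thresholds and leaving out each library. Scripts were tested on simulated counts.

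The members and all gene lists were chosen with earlier results of these data known. All 34 members could be named. Full statistics were given for members called in a treatment comparison, or for the 5 with the smallest p where fewer than 5 were called, for the 5 largest differences in each direction between sample types, and for up to 4 called genes of each other list. The study states that each n is a biological sample, but nothing states that the cultures were separate preparations. The p-values thus measure the spread between libraries, which may be technical. Within every group the closest pair of libraries differed by more than sampling noise (chi-square of at least 1.48 per degree of freedom), so each counted as 1 replicate. At 21324156 to 37901110 reads per library, counting error was small except for Atp6v0d2 and Ctsk.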

Additional observations from a re-analysis of the deposited data

Results flagged for a closer look

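In 5 of 136 gene and group combinations tested in the groups of 4 to 8 libraries, 1 library stood apart from the others of its group by Dixon's criterion, which chance does in about 1 in 20. In microglia, Lamp1 was 2210 CPM in anti-miR-99b replicate 5, against 2249 to 2255 CPM in the other 3. In the anti-miR-99b co-cultures, replicate 7 was the lowest for Npc2 (114 CPM against 118 to 120.3) and the highest for Gusb (15.7 CPM against 15.2 to 15.4). In the sc-control co-cultures, Ctsf was 40.4 CPM in replicate 6, against 42.7 to 44.3, and Lamp1 was 369 CPM in replicate 8, against 382 to 393. None of these genes was called in its experiment.

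The effect of anti-miR-99b on Atp6v1a differed between PFC and co-culture by -0.22 ± 0.05 on the log2 scale, with values of -0.19 and 0.04 in the 2 experiments (adjusted p = 0.019 by edgeR in the model of all 29 libraries). It stayed below an adjusted p of 0.05 with RLE scaling and with at least 10 counts in every library.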

How the results depend on the processing

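Replicate numbers occur in both groups for 2 pairs in PFC, 2 in microglia and 4 in co-culture. Same-numbered libraries did not deviate together (correlations of deviations 0.02 and -0.20 in PFC, -0.02 and -0.03 in microglia, and 0.00 to 0.05 in co-culture). No label states a pairing, and correlations from so few libraries cannot exclude one. Most same-numbered libraries also shared a sequencing lane. With the replicate block, fitted on those libraries alone, 7 members were called higher in PFC, 0 in microglia and 3 (Ctsb, Ctsd and Ctsz) in co-culture, against 0, 0 and 6. The same libraries without the block, an alternative chosen after seeing the data, gave 6, 0 and 3. The counts thus moved with the reduced set of libraries, which in PFC leaves out treated mouse 1 and control mouse 4. How many of all genes the fits on this reduced set called is not given here, so these member counts lack a background share. With no filter on low counts, 4 members were called higher in PFC (297 genes in all, against 15), and the cause was not tested. Leaving out 1 library gave 0 to 5 members higher in PFC, 0 in microglia and 6 throughout in co-culture, and 0 lower in each. The remaining alternatives gave 0 in PFC and in microglia and 5 or 6 in co-culture. Signs were followed only for the members given full statistics, and none of these changed sign. Other values, several of them smaller than their SE, were not followed.

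Between sample types, leaving out 1 library gave 22 higher and 2 lower for microglia against PFC, 25 and 0 for microglia against co-culture, and 1 or 2 higher (1 without PFC control 2 or 3, when Ctsc fell to 0.95 or 0.94) and 6 or 7 lower for co-culture against PFC. At an adjusted p below 0.05 with any fold, 6 members were lower in microglia than in PFC, 8 higher and 24 lower in co-culture than in PFC, and 2 lower in microglia than in co-culture. With at least 10 counts in every library, which drops Ctsk and Atp6v0d2, 1 was lower in microglia than in PFC and 0 higher in co-culture than in PFC. In co-culture, Atp6v0d2 and Ctsk were limited by 1 to 28 reads per library.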
